A study of Mus musculus with 10 samples.

Results

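Rhox5 and Stag3, a pair of genes normally expressed in germ line and reproductive tissue, were examined in cultured mouse tongue epithelial cells. They were 2 of 18586 genes in a table of RNA-seq values, and both were among the 11630 genes abundant enough to be tested. They were selected on their measured TPM, because these differed strongly between the groups EY and N, so that this difference is described here and carries no test. What the selection did not use was tested, which covers the differences among EY lines and the values of other genes.

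The data were 10 poly(A) RNA-seq libraries from primary cultures of adult littermate mice. All cells carried the driver Krt14-CreERT, the transactivator LSL-rtTA and the reporter tetON_H2B-GFP, and all mice received tamoxifen and doxycycline. Cells of genotype EY also carried tetON_E6-E7, an inducible pair of HPV oncogenes, and tetON_YAP1S127A, an inducible YAP1 that escapes Hippo inhibition. Cells of genotype N carried neither oncogene. The Krt14 promoter limits recombination to basal epithelial cells, which were collected 15 days after induction, sorted for H2B-GFP and expanded with doxycycline in the medium. Each of the EY lines EY3960, EY4028 and EY4174 gave 2 libraries (6 in all). Line N4172 alone gave the 4 libraries of N, so that genotype and line cannot be told apart on the N side.

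Stag3 encodes the STAG subunit of cohesin that is specific to meiosis. It joins other meiotic subunits, among them SMC1B, REC8 and RAD21L, in rings that hold sister chromatids and organize the chromosome axis on which the synaptonemal complex is built. Rhox5, formerly Pem, encodes a homeobox transcription factor of the X-linked Rhox reproductive cluster and is known from Sertoli cells, the epididymis, the placenta and tumor cell lines. In somatic cells many germ line genes are kept silent by promoter DNA methylation and by the PRC1.6 complex, which is brought to DNA by E2F6 and by MGA with MAX.

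Rhox5 (ENSMUSG00000095180) is a protein-coding gene on the forward strand of the X chromosome (GRCm38, chrX:37804842-37808876 in GENCODE). Its RefSeq start lies 50234 bp before the GENCODE start. Stag3 (ENSMUSG00000036928) is a protein-coding gene on the forward strand of chromosome 5 (GRCm38, chr5:138280240-138312393 in GENCODE). Its RefSeq gene span begins 7726 bp before the GENCODE start, whereas the RefSeq promoter window printed for it lies just after the GENCODE start. None of the 724 distinct 31-base words of the Rhox5 transcripts occurred in a transcript of another gene, and 79 of 6039 did for Stag3 (1.31%). The promoter sequences of both genes are shown with those of a meiotic gene that was also higher in EY, Syce2, and of a meiotic cohesin partner that stayed near 0, Smc1b. They are RefSeq promoters of build GRCm38.p6, written 5′ to 3′ from 250 bases before the start to 50 bases after it. Capitals mark the E2F motif TTCCCGC or its reverse GCGGGAA, the E-box CACGTG that MGA and MAX can bind, and the TEAD motif GGAATG or its reverse CATTCC.
Rhox5 (chrX:37754358-37754657, forward strand): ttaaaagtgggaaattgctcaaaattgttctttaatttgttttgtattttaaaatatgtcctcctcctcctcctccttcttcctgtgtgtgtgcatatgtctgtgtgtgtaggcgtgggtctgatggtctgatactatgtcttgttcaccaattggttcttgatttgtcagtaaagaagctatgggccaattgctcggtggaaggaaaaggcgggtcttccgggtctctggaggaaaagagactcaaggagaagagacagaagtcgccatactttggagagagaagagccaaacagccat
Stag3 (chr5:138280259-138280558, forward strand): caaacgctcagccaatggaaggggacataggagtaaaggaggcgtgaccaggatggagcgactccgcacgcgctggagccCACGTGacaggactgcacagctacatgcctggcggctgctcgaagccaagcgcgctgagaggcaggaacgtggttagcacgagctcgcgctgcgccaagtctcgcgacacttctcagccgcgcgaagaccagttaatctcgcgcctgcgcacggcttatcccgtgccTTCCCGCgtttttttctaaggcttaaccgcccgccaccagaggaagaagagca
Syce2 (chr8:84872008-84872307, forward strand): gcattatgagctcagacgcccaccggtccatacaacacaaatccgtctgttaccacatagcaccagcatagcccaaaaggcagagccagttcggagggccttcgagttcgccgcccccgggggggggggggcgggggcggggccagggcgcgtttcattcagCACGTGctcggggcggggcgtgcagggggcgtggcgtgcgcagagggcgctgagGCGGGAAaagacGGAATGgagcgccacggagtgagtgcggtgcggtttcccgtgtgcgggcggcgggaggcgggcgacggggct
Smc1b (chr15:85131908-85132207, reverse strand): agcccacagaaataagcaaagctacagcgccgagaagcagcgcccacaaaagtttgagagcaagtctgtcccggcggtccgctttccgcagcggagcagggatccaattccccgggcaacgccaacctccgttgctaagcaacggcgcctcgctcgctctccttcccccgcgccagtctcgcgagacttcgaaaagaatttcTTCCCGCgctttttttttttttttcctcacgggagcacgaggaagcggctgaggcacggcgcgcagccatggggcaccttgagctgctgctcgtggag

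The Stag3 promoter held the E2F motif at base 248 and the E-box at base 81 of the window. The Rhox5 window, which lies at the RefSeq start and not at the GENCODE start, held none of the 3 motifs. In the Syce2 window the E2F motif stood at base 217, the E-box at base 163 and the TEAD motif at base 229, and Smc1b held the E2F motif at base 203. Syce2 has a second RefSeq start, whose window (chr8:84871861-84872160) held none of the 3 motifs and 19 CpG. The windows of both RefSeq starts of Zcwpw1, the other meiotic gene higher in EY, also held none of the motifs, with 17 and 23 CpG. Zcwpw1 lies on chromosome 5, as Stag3 does, with its windows at chr5:137787081-137787380 and chr5:137787552-137787851. No motif overlapped another in the printed windows. Searched on both strands of 32851 RefSeq promoters of this length, the E2F letters occurred in 4.6%, the E-box in 7.15% and the TEAD letters in 14.7%. The printed windows also differed in CpG content, with 30 CpG for Stag3, 33 for Syce2, 29 for Smc1b and 5 for Rhox5, where the median promoter had 7. These are descriptions of letters and not of bound sites.

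Values are TPM, which divide the reads of each gene by its length and scale each library to a common sum. The read depth is unknown, so that no detection limit could be given, and the number of libraries limits the precision. The libraries had 10852 to 11522 genes at 1 TPM or more, and mitochondrial transcripts took 14.1% to 20.5%. Mouse Yap1 had 34.7 to 57.1 TPM in EY and 17.2 to 20.9 TPM in N. The study labels its transgene-specific primers hsaYAP1, and the share of transgene reads in these Yap1 values is unknown. The epithelial label held, with 10 of 10 keratinocyte markers in the table at a summed 6237 to 9002 TPM in EY and 7181 to 7875 TPM in N. Most of this sum came from Krt14, Krt5 and Krt6a. The collagen gene Col1a1 and the endothelial gene Kdr were below 0.1 TPM in every library. The immune genes Ptprc and Csf1r, the latter a macrophage receptor gene, were at most 0.347 and 0.0582 TPM. The macrophage marker Cd68, the abundant member of 3 immune markers in the table, had line means of 70.3 TPM in EY3960, 36.9 TPM in EY4028, 29.4 TPM in EY4174 and 51.1 TPM in N. It was called among the EY lines (limma F test, adjusted p = 0.00237) in the order that Rhox5 also showed, and its part in the Rhox5 levels was not tested. The basal keratin gene Krt15 also differed among the lines (limma F test, adjusted p = 4.13e-05), with 35.3, 8.77 and 31.9 TPM in EY3960, EY4028 and EY4174. Its mean in N was 84.3 TPM. Krt15 and Trp63 (53.0 TPM in EY, 79.9 TPM in N) were below N in all EY libraries, and Epcam (58.8 and 33.0 TPM) was above N in all.

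Rhox5 transcripts were abundant in every EY library and low in every N library. Line EY3960 had 420 and 382 TPM, line EY4028 had 308 and 301 TPM, and line EY4174 had 104 and 119 TPM. N replicates 1 to 4 had 3.04, 2.10, 3.06 and 2.75 TPM. The groups did not overlap, and the lowest EY library stood far above the highest N library. Rhox5 averaged 272 ± 132 TPM in EY (SD, n = 6), against 2.74 ± 0.451 TPM in N (SD, n = 4). Ordered by TPM within a library, Rhox5 ranked between 326 and 1098 of 18586 genes in EY and between 9172 and 9818 in N. Cells that hold the transcript and the amount of transcript per cell cannot be told apart in such bulk libraries.

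Stag3 transcripts were at a moderate level in every EY library and near 0 in N. Line EY3960 had 46.5 and 58.2 TPM, line EY4028 had 47.0 and 50.3 TPM, and line EY4174 had 54.2 and 60.2 TPM. The N libraries had 0.227, 0.0359, 0.520 and 0.0903 TPM. The EY libraries lay close together and did not overlap with N. Stag3 averaged 52.7 ± 5.76 TPM in EY (SD, n = 6), against 0.218 ± 0.217 TPM in N (SD, n = 4). Stag3 ranked between 1829 and 2357 of 18586 genes in EY libraries and between 12482 and 16823 in N libraries. For both genes all EY libraries were above all N libraries, which was so for 11.3% of the genes tested. The rule that chose them rests on this contrast, and nothing is read from that count.

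**Figure D1:**
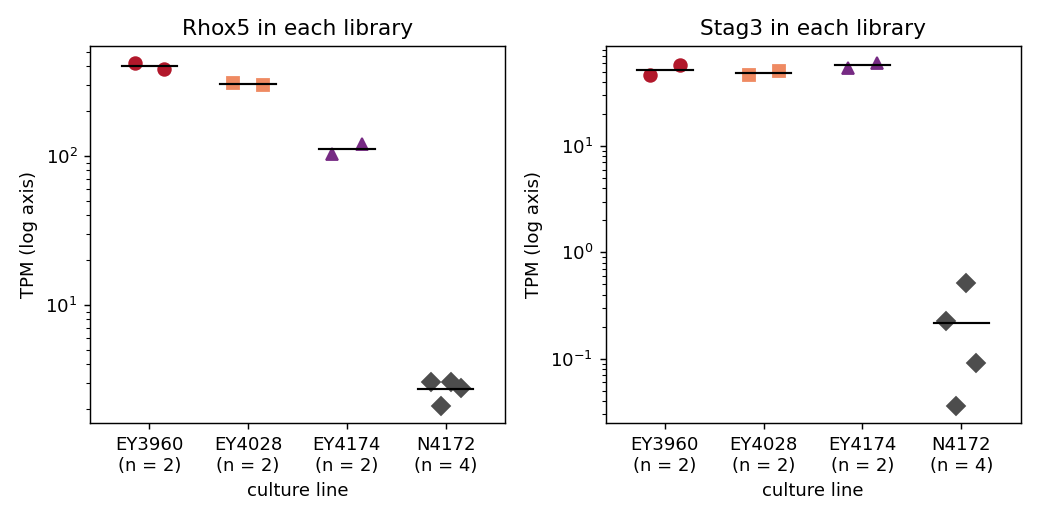
Rhox5 (left) and Stag3 (right) in TPM on log axes, with 1 point per library for the EY lines EY3960, EY4028 and EY4174 (n = 2 each) and the N line N4172 (n = 4), and horizontal lines at the line means. Rhox5 stepped down from 401 TPM in EY3960 to 112 TPM in EY4174, whereas the Stag3 line means were between 48.6 and 57.2 TPM.

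On the log2(TPM + 1) scale, which understates differences from a level near 0, EY exceeded N by 6.01 for Rhox5 and by 5.47 for Stag3. By size these differences ranked 5 and 7 among the 11630 genes tested. Set against N line by line, with the same 4 N libraries in each, Rhox5 was higher by 6.76 in EY3960, by 6.36 in EY4028 and by 4.92 in EY4174. For Stag3 the same differences were 5.46, 5.36 and 5.59. The line with the smallest difference for Rhox5, EY4174, thus had the largest for Stag3, although the Stag3 values of the lines lay within the spread tested next. Without N replicate 4, which stood apart in several other genes, the EY minus N differences were 6.02 for Rhox5 and 5.42 for Stag3.

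The 3 EY lines were then compared with one another. Rhox5 differed among them (limma F test over all genes, adjusted p = 1.26e-05), and 5.12% of all genes tested were called in this comparison. The line means were 401 TPM in EY3960, 304 TPM in EY4028 and 112 TPM in EY4174. Rhox5 was higher in EY3960 than in EY4174 by 1.84 on the log2(TPM + 1) scale (95% interval 1.54 to 2.14, limma adjusted p = 6.58e-06), a 3.58-fold difference. It was higher in EY4028 than in EY4174 by 1.44 (1.14 to 1.74, limma adjusted p = 8.10e-05), a 2.72-fold difference. Lines EY3960 and EY4028 differed by 0.39 (0.09 to 0.70, limma adjusted p = 0.106), which did not pass. Calls, at an adjusted p under 0.01 and a difference over 1, were made for 4.32%, 2.4% and 1.79% of genes in these pairs. The study names its libraries biological replicates, and the labels do not say how the libraries of a line were separated. These p-values rest on the spread between libraries of the same line.

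Stag3 was not called among the same lines (limma F test, adjusted p = 0.616). EY3960 differed from EY4028 by 0.10 on the log2(TPM + 1) scale, with a 95% interval from -0.31 to 0.51. EY3960 differed from EY4174 by -0.13 (-0.54 to 0.28), and EY4028 from EY4174 by -0.23 (-0.64 to 0.18). The limma adjusted p-values of these pairs were 0.802, 0.674 and 0.489. None of the intervals reached 1, the size that Rhox5 exceeded in the pairs with EY4174.

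**Figure D2:**
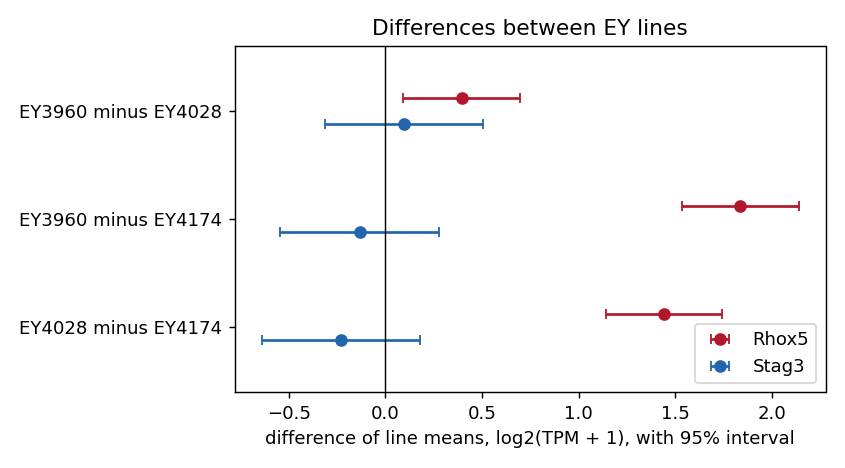
Differences between EY line means of Rhox5 (red) and Stag3 (blue) on the log2(TPM + 1) scale, with 95% intervals from the limma fit of 4 line means and a vertical line at 0. The Rhox5 differences from EY4174 were 1.84 and 1.44, and all Stag3 intervals included 0.

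The amount of Rhox5 relative to Stag3 was lowest in EY4174. Rhox5 had 9.03 and 6.57 times the TPM of Stag3 in EY3960, 6.56 and 5.98 times in EY4028, and 1.92 and 1.98 times in EY4174. The ratios of EY3960 and EY4028 lay next to each other. Over all 10 libraries their log2(TPM + 1) values had a Pearson r of 0.97, and over the 6 EY libraries r was -0.55. These correlations describe libraries that share culture lines and the gap between the groups.

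Rhox5 lies on the X chromosome, and sex-linked transcripts were therefore examined after their values were seen. The Y-linked RNA helicase gene Ddx3y averaged 15.8 ± 1.89 TPM over the EY libraries (SD, n = 6) and 16.2 ± 1.31 TPM over those of N (SD, n = 4), so that all 4 lines carried Y-linked transcripts. Xist, the RNA that coats the inactive X chromosome, had 8.72 and 7.98 TPM in line EY4028, at most 0.0154 TPM in the other EY lines and at most 0.162 TPM in N. Line EY4028 thus held both kinds of transcript, and its Rhox5 level lay between those of the other EY lines. The part of either in the Rhox5 level of this line was not tested.

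Among the other Rhox cluster genes, 2 of 31 had rows in the table and neither passed the filter on low values. Rhox8, which is known from Sertoli cells, was at most 0.0722 TPM in EY and 0.0681 TPM in N. Rhox10, known from germ cells, was at most 0.273 TPM in EY and 0.568 TPM in N. The level of Rhox5 in EY thus stood without a comparable level of either measured neighbor in the cluster.

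Stag3 was next set beside its mitotic paralogs, with TPM that are per length and so comparable between genes. Stag1, a STAG subunit of somatic cohesin, had 22.6 ± 2.06 TPM in EY (SD, n = 6), against 22.7 ± 1.79 TPM in N (SD, n = 4), a log2(TPM + 1) difference of -0.01 (limma adjusted p = 0.961). Stag2, the other somatic subunit, had 33.1 ± 3.39 TPM in EY (SD, n = 6), against 42.3 ± 7.41 TPM in N (SD, n = 4), a difference of -0.33 (limma adjusted p = 0.0683). Neither was called, and without N replicate 4, which had the lowest Stag1 and Stag2 of N, the Stag2 difference was -0.47 (limma adjusted p = 0.00513), below the size threshold. Stag3 made up 44.4% to 56.2% of the summed STAG transcripts in EY libraries and 0.0523% to 0.742% in N libraries. The sum of the 3 genes was 99.1 to 121 TPM in EY and 51.3 to 70.6 TPM in N.

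**Figure D3:**
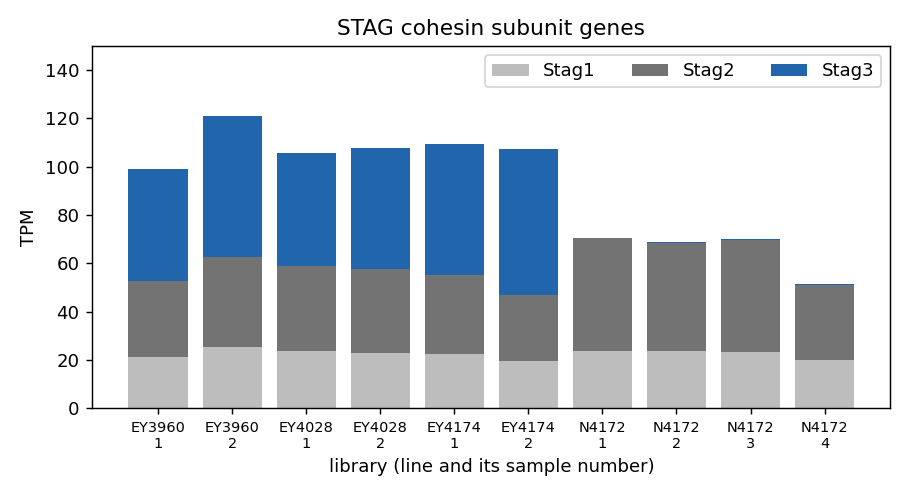
TPM of Stag1 (light gray), Stag2 (dark gray) and Stag3 (blue) stacked in each of 10 libraries, named by line and sample number within the line. Stag3 adds 46.5 to 60.2 TPM in EY libraries and is at most 0.520 TPM in N libraries.

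The remaining cohesin genes were examined next. Of 18 mitotic or shared cohesin genes and regulators, all were tested and 0 were called by limma (5 at an unadjusted p under 0.05). With 3.55% of all genes called between EY and N, nothing is read from this 0. The median difference of the 18 was -0.20, and that of all genes was 0.03. The largest difference in size was -0.61, for the securin gene Pttg1, against 5.47 for Stag3. The cohesin release and loading partner Pds5a had 62.2 ± 6.91 TPM in EY (SD, n = 6), against 74.8 ± 4.67 TPM in N (SD, n = 4), the kleisin Rad21 had 55.2 and 59.9 TPM, and the ATPase Smc1a had 47.6 and 43.9 TPM. Securin (Pttg1), which holds back the cohesin-cleaving separase, differed among EY lines (limma F test, adjusted p = 1.95e-05), with means of 30.8 TPM in EY3960, 57.1 TPM in EY4028 and 80.1 TPM in EY4174. Its order of lines was opposite to that of Rhox5.

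Of the meiotic partners, Smc1b had 0.0116 and 0.0271 TPM in EY3960, 0.0263 and 0 TPM in EY4028, and 0.470 and 0.127 TPM in EY4174. In N it was listed at 0 in 3 libraries and at 0.0228 TPM in the fourth. The synaptonemal axis gene Sycp2 was at most 0.0225 TPM in EY and had 0.0102 to 0.0379 TPM in N. Both genes were below the filter and were not tested. Sycp3, an axis component, and Taf7l, a germ cell paralog of a TFIID subunit, had no rows under these symbols in the table, so that no TPM can be given. The meiotic cohesin genes Rec8 and Rad21l likewise had no rows. All rows had a value above 0 in 6 or more libraries, so that the table as analysed holds no gene silent in most of them.

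Germ line genes were covered by 5 lists, of meiotic cohesin, the synaptonemal complex, meiotic recombination and entry, germ cell genes silenced in somatic cells, and the Rhox cluster. Apart from Rhox5 and Stag3 they named 113 genes. Of these, 33 were in the table, 11 were tested, 2 were higher and 1 was lower in EY, and 22 were below the filter. Over all genes 1.85% were called higher and 1.7% lower. The median difference of the 11 was 0.20, against 0.03 for all genes. A gene that passed the filter through 1 group alone had to differ, so that these counts are descriptions.

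Syce2, a central element protein of the synaptonemal complex, rose most among them. It had 92.2 and 73.5 TPM in EY3960, 109 and 110 TPM in EY4028, and 115 and 134 TPM in EY4174. The N libraries had 6.95, 7.51, 5.57 and 11.9 TPM. All EY libraries were above all N libraries, with a log2(TPM + 1) difference of 3.59 ± 0.19 (SE, limma adjusted p = 5.97e-07). Syce2 was not called among the EY lines (limma F test, adjusted p = 0.241).

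Zcwpw1, a reader of histone methylation at meiotic recombination sites, also rose. It had 6.34 and 7.56 TPM in EY3960, 12.2 and 13.0 TPM in EY4028, and 16.4 and 15.9 TPM in EY4174. The N libraries had 1.16, 0.866, 1.87 and 0.894 TPM. The difference from N was 2.50 ± 0.25 (SE, limma adjusted p = 4.66e-05). In N it reached 1 TPM in too few libraries to pass the filter on low values, so that this test is conditioned on its EY level. EY3960 was lower than EY4174 by a difference of -1.11 (limma adjusted p = 0.00351). Zcwpw1 thus had its lowest EY level in the line with the highest Rhox5. Of its 31-base words, 11.4% occurred in other genes, so that its level is less certain.

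Meiob, a single-stranded DNA binding factor of meiotic recombination, was lower in EY. Its EY values were 0.0352 to 0.508 TPM with a median of 0.311, and N had 3.31, 2.14, 3.10 and 2.75 TPM. The difference was -1.55 ± 0.15 (SE, limma adjusted p = 3.14e-05). Meiob passed the filter on low values through the N libraries alone, and its test is conditioned on that. The calls of Syce2, Zcwpw1 and Meiob ended when the mean of each line was taken as 1 unit (limma adjusted p = 0.0221, 0.188 and 0.172).

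Of the 11 germ line genes tested, Sycp1, Tex15 and Zcwpw1 (3 in all) were called among EY lines, where 5.12% of all genes were called. Sycp1 and Tex15 were lowest in EY4174 and were singled out after their values were seen. Sycp1, the transverse filament protein of the synaptonemal complex, had 1.78 and 2.18 TPM in EY3960, 2.63 and 2.88 TPM in EY4028, and 0.249 and 0.0572 TPM in EY4174. The N libraries, with 0.970 to 1.09 TPM, lay between the lines. It was higher than in EY4174 by 1.37 in EY3960 and by 1.71 in EY4028 (limma adjusted p = 1.88e-04 and 6.53e-05). Of its 31-base words 15.6% occurred in other genes.

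Tex15, a testis factor of germ line transposon silencing and recombination, had 1.37 and 1.74 TPM in EY3960, 2.42 and 2.08 TPM in EY4028, and 0.0910 and 0.101 TPM in EY4174. N had 0.188 to 0.485 TPM. It was higher than in EY4174 by 1.22 in EY3960 and by 1.57 in EY4028 (limma adjusted p = 8.10e-04 and 2.63e-04). Tex15 passed the filter on low values through these 2 lines alone, and its tests are conditioned on that. It was not called between EY and N (0.58, limma adjusted p = 0.233) but was called without line EY4174 (1.04, limma adjusted p = 8.82e-04). Sycp1, Tex15 and Rhox5 were thus all lowest in EY4174 among the EY lines, with Sycp1 and Tex15 at levels of a few TPM at most.

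Of the 36 listed germ cell genes silenced in somatic cells, 7 were in the table and 0 passed the filter, so that no limma p can be given for them. Tdrd1, a Tudor protein of the piRNA pathway, was listed at 0 in both EY3960 libraries, had 8.69 and 8.73 TPM in EY4028, and had 0.159 and 0.0606 TPM in EY4174. N was at most 0.0328 TPM. The level of Tdrd1 was therefore carried by the same line that held Xist. Dazl, a germ cell RNA-binding protein, had 0.0466 to 0.892 TPM in EY and was listed at 0 in each N library. Tdrkh, another Tudor protein, had 0.172 to 0.885 TPM in EY and 0.0478 to 0.203 TPM in N, and Dppa5a had at most 0.364 TPM in EY and 0.518 TPM in N.

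**Figure D4:**
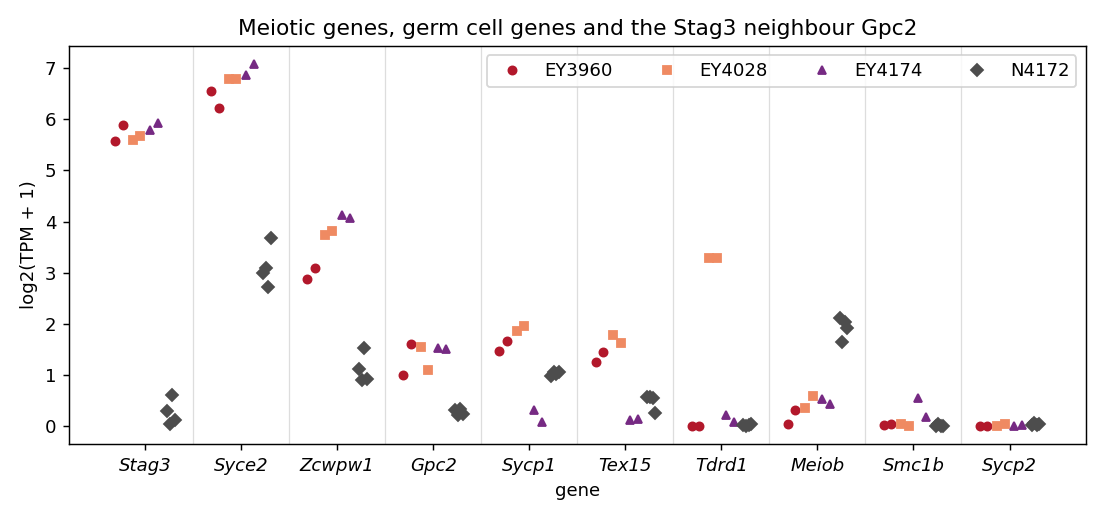
log2(TPM + 1) of Stag3, 8 other germ line genes and the Stag3 neighbor Gpc2 in each library, with red circles for EY3960, orange squares for EY4028, purple triangles for EY4174 and gray diamonds for N4172. Stag3, Syce2 and Zcwpw1 are high in all EY lines, Tdrd1 is at 8.69 and 8.73 TPM in EY4028, and Sycp1 and Tex15 are lowest in EY4174.

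The genes next to Stag3 and Rhox5 were examined for values of their own. Gpc2, which encodes the cell surface proteoglycan glypican-2, starts 235 bp before Stag3 on the opposite strand. It had 1.01 and 2.04 TPM in EY3960, 1.91 and 1.15 TPM in EY4028, 1.90 and 1.84 TPM in EY4174, and 0.165 to 0.258 TPM in N. The groups did not overlap, and the difference was 1.10 ± 0.15 (SE, limma adjusted p = 3.92e-04). Gpc2 passed the filter on low values through EY libraries alone, and its test is conditioned on that. The call ended with the line as a random block (limma adjusted p = 0.0276), with the mean of each line as 1 unit (limma adjusted p = 0.247) and with a sample number block (limma adjusted p = 0.0190). Gal3st4 and Pvrig, the other Stag3 neighbors in the table, were below 0.25 TPM in each library. Next to Rhox5, Rhox8 was in the table.

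Genes of the repression machinery that acts on germ line genes were measured without a call. Of 15 E2F6 and PRC1.6 genes tested, 0 were called by limma between EY and N, where 3.55% of all genes were called. At that share few calls or none would be made among 15 genes, so nothing is read from the 0. The median difference of the 15 was -0.00, and 9 had an unadjusted limma p under 0.05. The most abundant were the heterochromatin protein gene Cbx3, with 188 TPM in EY and 238 TPM in N, the E2F partner Tfdp1, with 133 and 146 TPM, the deacetylase genes Hdac2, with 124 and 127 TPM, and Hdac1, with 65.4 and 46.9 TPM. Singled out after their values were seen, the DNA-binding subunit genes Mga and E2f6 differed by 0.61 and 0.42 (limma adjusted p = 0.00917 and 0.0151), toward higher values in EY. L3mbtl2 was also higher, by 0.39 (limma adjusted p = 0.0409). Other members of the list were lower in EY. Tfdp2, Cbx3 and Pcgf6 differed by -0.47, -0.33 and -0.32 (limma adjusted p = 0.0357, 0.0128 and 0.0255). Hdac1 (0.48, limma adjusted p = 0.00177) and Mga passed the p threshold and not that of size.

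Of 15 enzymes and cofactors of DNA methylation, its removal and H3K9 methylation, 12 were tested and 0 called by limma between EY and N. With 3.55% of all genes called, nothing is read from this 0 either. The median difference of the 12 was -0.06, and 2 had an unadjusted limma p under 0.05. The corepressor gene Trim28 had 87.5 TPM in EY and 72.6 TPM in N, the chromatin remodeler gene Hells 66.9 and 89.2 TPM, the maintenance methylation factor gene Uhrf1 33.4 and 30.3 TPM, and the H3K9 methyltransferase gene Suv39h1 21.2 and 20.7 TPM. Hells (-0.41, limma adjusted p = 0.00821) and the demethylase gene Tet2 (-0.63, limma adjusted p = 0.00408), the latter singled out after its value was seen, passed the p threshold and not that of size. RNA levels give no value for promoter methylation or for protein.

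**Figure D5:**
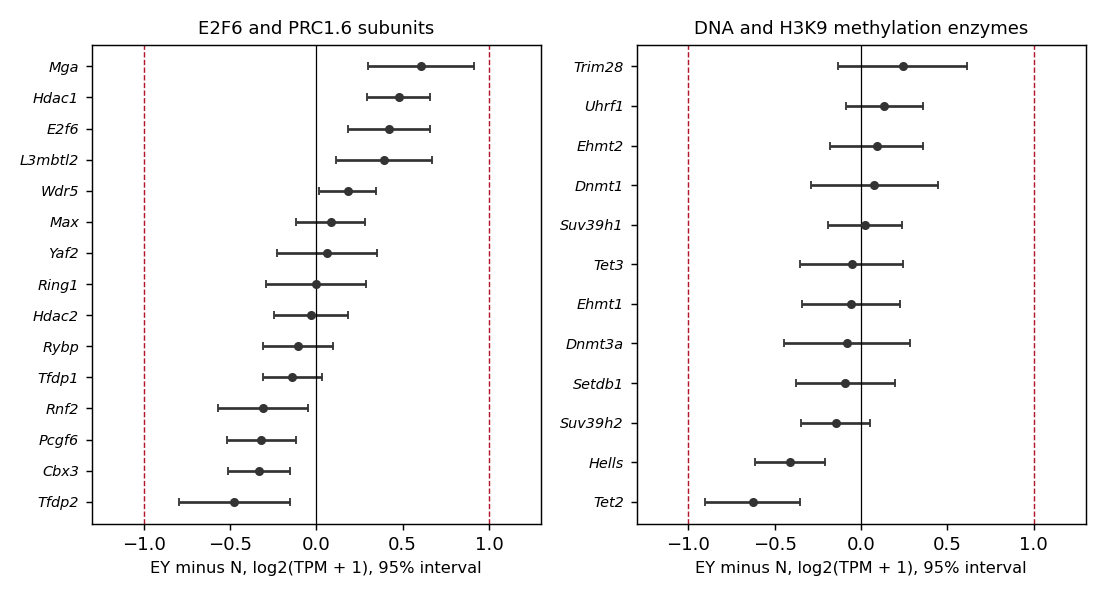
EY minus N differences on the log2(TPM + 1) scale with 95% intervals. The left panel holds 15 E2F6 and PRC1.6 genes, and the right panel 12 genes of DNA methylation, its removal and H3K9 methylation. Dashed lines mark the size threshold of 1 in either direction. Every estimate lies between the dashed lines, from Tet2 at -0.63 to Mga at 0.61.

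Markers of cell types that normally express these genes were checked in the same libraries. Of 10 male germ cell markers, 2 were in the table, with a summed level of 0.0848 to 0.939 TPM in EY and 0.0367 to 0.0797 TPM in N, and Ddx4, a defining germ cell helicase, was at most 0.0987 TPM. Of 10 Sertoli cell markers, 7 were in the table at a summed 3.47 to 5.06 TPM in EY and 2.34 to 3.74 TPM in N, with Amh at most 0.412 TPM. Among them Gata4, singled out after its values were seen, ordered the EY lines as Rhox5 did. Its line means fell from 1.36 TPM in EY3960 to 0.0564 TPM in EY4174, with 0.248 TPM in N. Dhh was instead highest in EY4174 (2.22 TPM, 0.548 TPM in N) and Sox9 in EY4028 (3.16 TPM, 1.78 TPM in N). Gata4 and Dhh were below the filter and were not tested. Of 10 trophoblast markers, 5 were in the table at a summed 91.8 to 916 TPM in EY and 83.8 to 113 TPM in N. Nearly all of the trophoblast sum was the placental hormone gene Prl2c2, with 912 TPM in EY3960, 374 TPM in EY4028, 90.7 TPM in EY4174 and 92.9 TPM in N by line means. Prl2c2 thus ordered the EY lines as Rhox5 did. The trophoblast regulator Eomes was low but above N in all EY libraries, with line means of 1.603, 1.37 and 1.03 TPM in EY3960, EY4028 and EY4174 and 0.308 TPM in N. Its difference of 0.82 (limma adjusted p = 0.00112) was below the size threshold and passed it with a pseudocount of 0.1 (1.79). Eomes passed the filter on low values through EY libraries alone, and its test is conditioned on that. Elf5, another trophoblast regulator, was at most 0.296 TPM. The part of such cells in the Rhox5 levels was not tested.

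The genes whose log2(TPM + 1) values followed Rhox5 most closely were sought among 7597 genes with a mean of at least 5 TPM in EY. Over 10 libraries these were Ccl20, a chemokine gene (Pearson r = 0.996), Vmn2r97, of a vomeronasal receptor family (0.995), Edn1, encoding endothelin-1 (0.993), Nt5dc2 (0.992) and Dlgap1 (0.992). Within the 6 EY libraries the r of these genes with Rhox5 was between 0.81 for Dlgap1 and 0.98 for Nt5dc2. All 5 had their lowest EY line mean in EY4174, as Rhox5 did, whereas Ccl20, Vmn2r97 and Dlgap1 were highest in EY4028 and not in EY3960.

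For Stag3 the closest genes included Ckap4, of an endoplasmic reticulum membrane protein (Pearson r = 0.992), Psmc3, of a proteasome ATPase (0.988), Tmem185b (0.988) and Aen, of a p53-induced nuclease (0.987). Within the 6 EY libraries the r of these genes with Stag3 ranged from -0.35 for Aen to 0.62 for Psmc3. Their EY means differed widely in level from Stag3, from 11.4 TPM for Ckap4 to 205 TPM for Psmc3. These correlations share lines, libraries and the common scaling, and are descriptions only.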

How the data were processed

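The deposited table held TPM per gene symbol for 10 libraries, computed by the authors. The submitters' processing notes name STAR 2.7.9, SAMtools 1.7, HTSeq 0.13.5, DESeq2 1.34.0 and GRCm39. The study's methods describe TPM for a Kallisto quantification with the highest transcript per gene, and the step that made this table is not given in the sources used here. No read counts were used.

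Genes that reached 1 TPM in 4 or more libraries were tested with limma 3.58.1 (R 4.3.3, trend and robust options) on log2(TPM + 1). Calls required a Benjamini-Hochberg adjusted p under 0.01 over all genes tested and a difference over 1. EY was compared with N in a group fit, and EY lines in a fit of 4 line means, with an F test and pairs. The group fit took each library as 1 unit, with all N libraries from 1 line. Its p-values therefore do not measure variation among N lines. The fits were tested on simulated data. The members, lists and comparisons were chosen with earlier results of these data known. Named genes were the members, Stag paralogs, listed genes that were called or otherwise the most abundant of a list, neighbors, and the 5 genes most correlated with each member, without histone genes, predicted genes and pseudogenes; 1 gene that this rule names is not reported here. Alternatives changed the pseudocount, filter, scaling, variance options, block and libraries used. Locations and transcript words came from GENCODE on GRCm38, and promoters from RefSeq. Coordinates were not taken from the table.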

Additional observations from a re-analysis of the deposited data

Results flagged for a closer look

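Among the genes named here, differences between EY lines passed the limma thresholds as follows. Rhox5 was higher than in EY4174 by 1.84 in EY3960 and by 1.44 in EY4028 on the log2(TPM + 1) scale. Sycp1 (1.37 and 1.71) and Tex15 (1.22 and 1.57) differed in the same pairs and directions. Zcwpw1 (-1.11) and Pttg1 (-1.35) were lower in EY3960 than in EY4174. Cd68 was higher in EY3960 than in EY4174 (1.23), and Krt15 was lower in EY4028 than in EY3960 (1.89 for EY3960 minus EY4028) and than in EY4174 (-1.74). Prl2c2 differed in all 3 pairs, by 1.28 between EY3960 and EY4028, by 3.31 between EY3960 and EY4174, and by 2.03 between EY4028 and EY4174.

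Single libraries stood far from the rest of their group in 10 of 116 groups examined over 58 genes, where chance gives about 5.8. Smc1b had 0.470 TPM in EY replicate 3, of line EY4174, and 0.0228 TPM in N replicate 2, where the other N libraries were at 0. Psmc3 had 221 TPM in EY replicate 6 and Ptprc 0.347 TPM in EY replicate 5. The other 6 were all N replicate 4, which was lowest of N in Stag1 (20.01 TPM), Stag2 (31.2 TPM), Tex15 (0.188 TPM) and Hdac2 (98.9 TPM) and highest in Hdac1 (55.3 TPM) and Xist (0.162 TPM).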

How the results depend on the processing

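The direction of the EY minus N differences of Rhox5 and Stag3 held under all alternatives run. Leaving out 1 library at a time gave EY minus N differences of 5.85 to 6.25 for Rhox5 and 5.40 to 5.58 for Stag3. Stag3 moved to 7.61 with a pseudocount of 0.1 and to 5.69 when TPM were rescaled without mitochondrial genes. The calls of Rhox5 in the pairs with EY4174 held in each such fit, and the difference from EY3960 ranged from 1.74 to 1.94. The sign of the Stag3 difference of EY3960 from EY4028 (-0.06 to 0.26) and from EY4174 (-0.29 to 0.03) varied. Requiring 1 TPM in all 10 libraries removed Stag3 itself and left 216 calls between EY and N, 350 among EY lines, and 455, 371 and 317 for EY3960, EY4028 and EY4174 against N. Taking the line as a random block gave 203 calls between EY and N, and the mean of each line as 1 unit gave 2, with 1 N line. The sample number as a replicate block gave 221, against 413 without it. Same-numbered libraries did not deviate together over all genes tested (correlations from -0.148 to 0.0518). This check left out N replicates 3 and 4 and could not show a pairing limited to some genes. Among single genes, 17 results lost a call and 4 gained one under some alternative. Read depth is unknown, and levels near 0 TPM are therefore the least certain.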
